A study of Arabidopsis thaliana with 4 samples.

Results

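The 10 genes described here encode kinesins of the plant spindle and phragmoplast. They were chosen by gene identifier and need not hold whole families. Kinesin-12 genes among them are the phragmoplast orienting kinesins POK1 and POK2, PAKRP1 (AT4G14150), PAKRP1L (AT3G23670) and AT3G20150. The others are the kinesin-7 genes HIK and TES, PAKRP2, and the kinesin-14 genes ATK1 and ATK5. All 10 were found among the 32548 genes of the deposited table. Gene-level mRNA abundance had been measured by RNA sequencing in seedlings of Arabidopsis thaliana, aged 2 weeks and raised on MS plates at 22 °C with 16 h of light and 8 h of dark. There were 4 libraries, 2 of each genotype, labelled cmt3-/- and tcx5-/-tcx6-/-cmt3-/-. All 4 libraries thus share the labelled loss of CMT3, the CHG methyltransferase, and the comparison asks how mRNA levels differ with the added labelled loss of TCX5 and TCX6, CXC-domain subunits of the DREAM repressor of cell cycle genes. Alleles were not named in the labels, and no label ties the 2 libraries of a genotype to separate plants. The p-values therefore rest on the spread between these libraries, and that spread may be technical.

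Kinesins are motor proteins that use ATP to move along microtubules. In a dividing plant cell they first help to shape the spindle and then the phragmoplast, the microtubule array that guides vesicles to the growing cell plate until it meets the mother wall. Many of these genes are transcribed around mitosis, under MYB3R factors that bind promoter elements with an AACGG core.

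The labels were checked first. TCX5 was at 729.8 and 676 (normalised abundance) in cmt3, against 251 and 249 in the libraries labelled tcx5/6;cmt3, whereas TCX6 was at 198 and 179.8 in cmt3, against 919 and 1034 in those libraries. TCX5 mRNA was thus lower (log2 fold change -1.49; limma adjusted p = 0.00121) and TCX6 mRNA higher (2.36; limma adjusted p = 0.00044). CMT3 was at 822 and 662 in cmt3, against 1289 and 1343 in the labelled triple mutant (limma adjusted p = 0.00985, and 0.111 without the mean-variance trend). TCX6 mRNA therefore went against its label, and since gene totals do not show which part of a transcript was read, the term labelled triple mutant is used for the second genotype. Library totals of the normalised values were 38264463 to 41106102, and the reads behind them are unknown, so no limit of detection is given. Of the tissue markers, the leaf gene RBCS1A was at 403320.4 or more in every library and the root gene PYK10 at 47919 or more, so both organs were represented.

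All 10 kinesin transcripts rose in the labelled triple mutant. Values lay between 249 and 1069 in the cmt3 libraries and between 657 and 3495 in the labelled triple mutant, and for each gene both labelled triple mutant libraries lay above both cmt3 libraries. Fold changes on the log2(value + 1) scale ran from 0.90 for HIK to 2.49 for POK1, with a median of 1.33 against a median of -0.02 over all 23666 genes tested. Of those genes, 6.15% were called higher at a limma adjusted p under 0.05, 2.32% were called lower and 8.47% in either direction, while 24.4% had both labelled triple mutant libraries above both cmt3 libraries, and 50.1% had groups that did not overlap in either direction. At 2-fold or more, 9 of the 10 kinesins were called higher, against 3.28% of all genes. The values of the 10 kinesins summed to 5830.0 and 5626 in cmt3, against 17085 and 16717 in the labelled triple mutant. In whole seedlings, a difference in the number of dividing cells and a difference in mRNA per cell cannot be told apart.

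**Figure D1:**
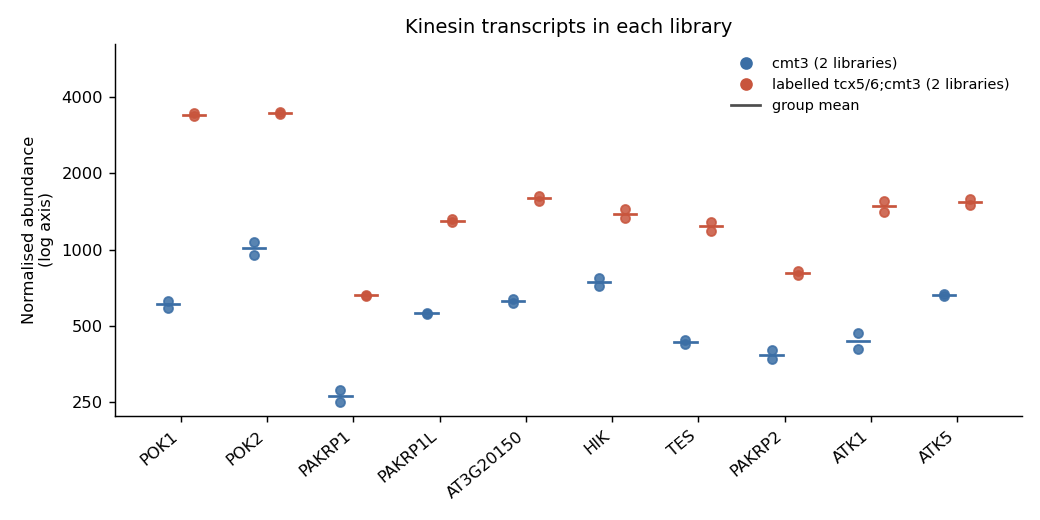
Normalised abundance (log axis) of the 10 kinesin transcripts in each of the 2 cmt3 libraries (blue) and 2 labelled tcx5/6;cmt3 libraries (red), with horizontal lines at the group means. For every gene the red points lie above the blue points, and the distance between them is widest for POK1 (607 against 3419) and narrowest for HIK (746 against 1389).

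The POK proteins mark the cortical division zone and guide the phragmoplast to it. POK1 (AT3G17360, TAIR10.1 chromosome 3, 5935880 to 5946540, plus strand) was at 628 and 587 in cmt3, against 3374 and 3465 in the labelled triple mutant. POK2 (AT3G19050, chromosome 3, 6577724 to 6590253, plus strand) was at 1069 and 955 in cmt3, against 3435 and 3495 in the labelled triple mutant. The groups were far apart for both genes, and the libraries within a group were close together. The log2 fold change was 2.49 ± 0.08 (SE, n = 2 and 2; limma adjusted p = 0.000277) for POK1, a 5.63-fold rise. For POK2 it was 1.78 ± 0.09 (SE; limma adjusted p = 0.000387), a 3.43-fold rise. Their 95% confidence intervals, 2.29 to 2.69 for POK1 and 1.57 to 1.99 for POK2, did not overlap, although the difference itself was not tested.

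PAKRP1 and PAKRP1L encode kinesin-12 motors of the phragmoplast midline. PAKRP1 (chromosome 4, 8158436 to 8165214, minus strand) was at 278 and 249 in cmt3, against 663 and 657 in the labelled triple mutant, with a log2 change of 1.32 ± 0.13 (SE, n = 2 and 2; by limma, adjusted p = 0.0021). PAKRP1L (chromosome 3, 8519136 to 8525289, plus strand) was at 556 and 563 in cmt3, against 1315 and 1283 in the labelled triple mutant, with a log2 change of 1.21 ± 0.09 (limma adjusted p = 0.000805). This pair had nearly the same fold change, with intervals of 1.01 to 1.63 and 1.00 to 1.43. AT3G20150 (chromosome 3, 7031171 to 7037010, plus strand), the remaining kinesin-12 gene of the set, was at 637 and 617 in cmt3, against 1626 and 1559 in the labelled triple mutant, with a log2 change of 1.34 ± 0.09 (limma adjusted p = 0.000596).

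HIK, also called NACK1, and TES, also called NACK2, bind and activate the NPK1-type kinases that drive phragmoplast expansion, and TES is known for its role in the cytokinesis of male meiocytes. HIK (AT1G18370, chromosome 1, 6319450 to 6324378, minus strand) was at 720.5 and 772 in cmt3, against 1443 and 1334 in the labelled triple mutant. Its log2 change of 0.90 ± 0.09 (SE, n = 2 and 2; by limma, adjusted p = 0.00277) was the smallest of the 10, and it was the only one of them to miss the threshold in limma without the mean-variance trend (adjusted p = 0.055). TES (AT3G43210, chromosome 3, 15190786 to 15196215, plus strand) was at 439 and 425 in cmt3, against 1287 and 1184 in the labelled triple mutant, with a log2 change of 1.51 ± 0.10 (limma adjusted p = 0.00066). The intervals of the pair, 0.67 to 1.12 for HIK and 1.27 to 1.76 for TES, did not overlap, and the difference was not tested. Of the anther and male meiocyte markers none was called higher. MS1 was listed at 0 in all 4 libraries, DYT1 was at 1.19 or less, AMS was at 0.406 to 8.53, and TDF1 was listed at 0 in cmt3 and was at 5.65 and 3.25 in the labelled triple mutant (limma adjusted p = 0.159). The 5 markers of that list summed to 1382 and 1263 in cmt3, against 886 and 1011 in the labelled triple mutant, nearly all of it TPD1, which was called lower (limma adjusted p = 0.0402). That call was lost with the replicate block (adjusted p = 0.0633), without the trend (0.195), without cmt3 replicate 1 (0.137) and without cmt3 replicate 2 (0.0799).

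PAKRP2 encodes a phragmoplast kinesin known for moving vesicles towards the cell plate. PAKRP2 (AT4G14330, chromosome 4, 8244053 to 8247494, plus strand) was at 369 and 399 in cmt3, against 791 and 825 in the labelled triple mutant. The groups were well apart, with a log2 change of 1.07 ± 0.11 (SE, n = 2 and 2; by limma, adjusted p = 0.00267).

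ATK1 and ATK5 are kinesin-14 motors that move towards microtubule minus ends and focus spindle poles. ATK1 (AT4G21270, chromosome 4, 11329319 to 11334168, minus strand) was at 468 and 405 in cmt3, against 1560.2 and 1412 in the labelled triple mutant, with a log2 change of 1.77 ± 0.11 (SE, n = 2 and 2; by limma, adjusted p = 0.000617). The gap of 0.21 between its cmt3 libraries on the log2 scale was the largest replicate gap among the 10 genes. ATK5 (AT4G05190, chromosome 4, 2675064 to 2680214, plus strand) was at 667 and 654 in cmt3, against 1591 and 1501 in the labelled triple mutant, with a log2 change of 1.23 ± 0.09 (limma adjusted p = 0.000727). ATK5 overlaps CRK25 on the opposite strand over 492 bases, and the strand setting of the counting is not stated in any source used here. CRK25 was at 296 and 535 in cmt3, against 382 and 301 in the labelled triple mutant (limma adjusted p = 0.735), so the overlapping gene was not called in either direction. POK2 overlaps the non-coding gene AT3G03795 over 70 bases, and that gene was listed at 0 in all 4 libraries.

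Without one or the other labelled triple mutant library, the call of all 10 kinesins was lost, like that of every gene in the table, with limma adjusted p from 0.138 to 0.195 without replicate 1 and from 0.14 to 0.198 without replicate 2. In those fits the spread comes from the cmt3 pair alone, and the lone labelled triple mutant library is assumed to vary like it.

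Scaled by the length of annotated exon, the order of the kinesin transcripts differed between the genotypes. In cmt3, HIK had the highest level per kb, at 207 and 222, followed by ATK5 at 201 and 197. AT3G20150 (154 and 149.6) and ATK1 (159.9 and 138) came next and overlapped each other. PAKRP1L (128 and 130.1) overlapped PAKRP2 (123 and 133), and TES (122 and 118) overlapped POK2 (123 and 110.2). POK1, at 92.1 and 86.1, and PAKRP1, at 64.8 and 58.1, were the lowest. In the labelled triple mutant, ATK1 (533 and 482) and POK1 (495 and 508) overlapped at the top, so that POK1 moved from rank 9 to rank 2 of the 10. ATK5 (479 and 452) lay below them, and HIK (415 and 384) overlapped both POK2 (396 and 403) and AT3G20150 (394 and 378). TES followed at 357 and 328, PAKRP1L at 304 and 296 and PAKRP2 at 264 and 276. PAKRP1 kept the lowest level, at 154 and 153. The gene model behind the authors' counts is not stated in any source used here, so the length scaling rests on the TAIR10.1 annotation. This order and the per-kb ratios below also assume that the deposited values were not already divided by length.

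**Figure D2:**
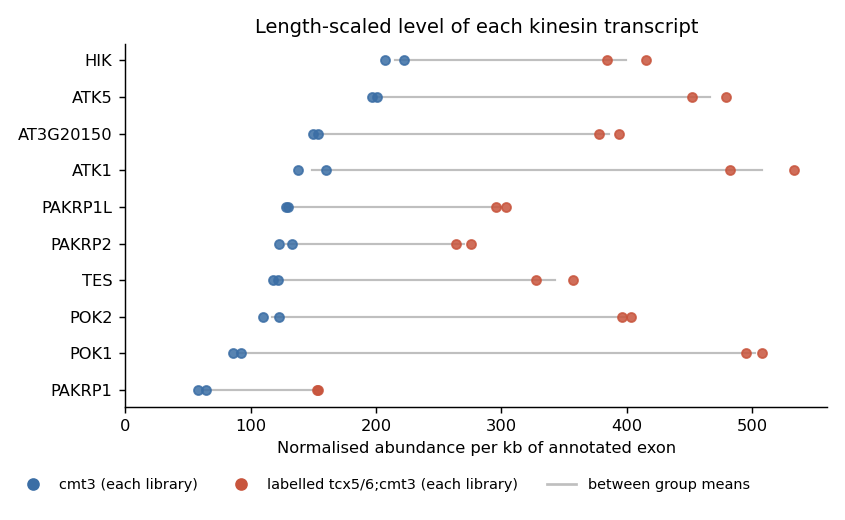
Normalised abundance per kb of annotated exon (linear axis) for each kinesin transcript, with 1 point for each library (blue for cmt3, red for labelled tcx5/6;cmt3) and a grey line between the group means. Genes are ordered by their cmt3 mean, and POK1, second from the bottom in cmt3 at 89.1, has a mean of 502 in the labelled triple mutant.

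The ratio of related transcripts within each library shows the unequal rises directly, since a factor that scales a whole library cancels. Per kb, POK1 stood at 0.746 and 0.781 of POK2 in cmt3, against 1.25 and 1.26 in the labelled triple mutant. HIK stood at 1.71 and 1.89 of TES in cmt3, against 1.16 and 1.17 in the labelled triple mutant. ATK1 stood at 0.796 and 0.702 of ATK5 in cmt3, against 1.11 and 1.07 in the labelled triple mutant. For these pairs the genotypes were further apart than the libraries of either genotype. PAKRP1 stood at 0.505 and 0.446 of PAKRP1L in cmt3, against 0.508 and 0.516 in the labelled triple mutant, where the genotypes did not overlap either, but their means differed by less than the cmt3 libraries did. No p is given for these ratios, because 0.333 is the smallest value that an exact two-sided permutation test can reach with 2 libraries in each genotype.

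**Figure D3:**
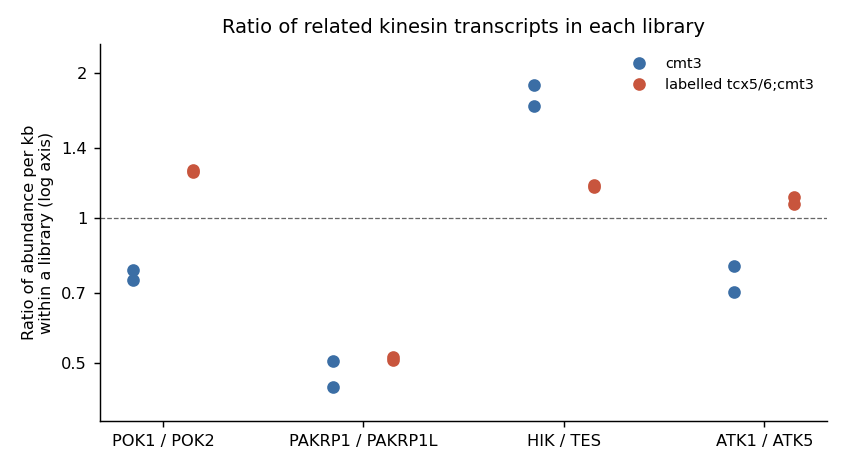
Ratio of abundance per kb of exon (log axis) between related kinesin transcripts, computed within each library, with 1 point for each cmt3 library (blue) and each labelled tcx5/6;cmt3 library (red) and a dashed line at equal levels. POK1 / POK2 and ATK1 / ATK5 lie below the line in cmt3 and above it in the labelled triple mutant, HIK / TES lies closer to the line in the labelled triple mutant, and PAKRP1 / PAKRP1L is near 0.5 in both.

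The annotated sequences were compared to see whether reads could be shared. In the translated TAIR10.1 coding sequences, ATK1 and ATK5 were 83.7% identical over 789 aligned residues, PAKRP1 and PAKRP1L 75.0% over 1274, HIK and TES 61.3% over 923, and POK1 and POK2 41.4% over 2037. The longest identical run between any pair of these transcripts was 44 bases, between PAKRP1 and PAKRP1L. No transcript of the 10 shared a 50-base word with another of the 10. With genes outside the set, on either strand, ATK5 shared 334 of its 3271 words (10.21%) with the overlapping CRK25. POK2 shared 21 of its 8614 words with the overlapping AT3G03795. The kinesin motor signature, searched by its PROSITE pattern, was found in 8 of the 10 proteins and was not matched in AT3G20150 or PAKRP2. It began at residue 401 of 2075 in POK1, at 426 of 2771 in POK2 and at 251 of 974 in HIK, in the first part of the protein. In ATK1 (672 of 793) and ATK5 (669 of 790) it lay near the other end, the known layout of kinesin-14 motors.

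Promoters were examined because the 10 transcripts moved together. The window ran from 250 bases before to 50 bases after the annotated gene start, and both strands were searched for AACGG (reverse complement CCGTT), the core of MYB3R sites, and for TTTGAA (reverse complement TTCAAA) and TTCGAA, words of the CHR type that the human CXC-domain protein LIN54 binds. AACGG was present in 6 of the 10 windows, against 24.5% of the 32546 gene windows of this length, and occurred 2 or more times in 3, against 4.7%. TTTGAA or TTCGAA was present in 7 of 10, against 48.4%, and occurred 2 or more times in 6, against 15.6%. In the 500 bases before the start it was present in 8 of 10, against 67.7%, and occurred 2 or more times in 4, against 33.0%, so the count of repeated words depended on the window. AACGG in those 500 bases was present in 6 of 10, against 34.1%. No E2F word (TTT, then CC, GG, CG or GC, then CGC) was present in the 10 windows, against 1.6% of all windows. These matches are descriptions of letters and not of bound sites. The 5 windows printed are those of the kinesins with the largest and the smallest fold change (POK1 and HIK), of POK2 as the relative of POK1, of PAKRP1L as the window with most AACGG words, and of ATK5 as the window with no word. They are written 5′ to 3′ on the gene's strand, from RefSeq TAIR10.1, with words in capitals.
POK1 (chr3:5935630-5935929, plus strand) has 4 words of the TTTGAA or TTCGAA type and no AACGG.
POK1: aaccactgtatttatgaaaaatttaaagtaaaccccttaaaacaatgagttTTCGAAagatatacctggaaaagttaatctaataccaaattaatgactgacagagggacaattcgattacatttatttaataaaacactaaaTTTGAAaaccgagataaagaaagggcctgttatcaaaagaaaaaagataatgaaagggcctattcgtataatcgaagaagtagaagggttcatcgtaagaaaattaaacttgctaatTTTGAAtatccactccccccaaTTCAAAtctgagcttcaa
POK2 (chr3:6577474-6577773, plus strand) has 5 of these words, and the first TTTGAA overlaps a CCGTT.
POK2: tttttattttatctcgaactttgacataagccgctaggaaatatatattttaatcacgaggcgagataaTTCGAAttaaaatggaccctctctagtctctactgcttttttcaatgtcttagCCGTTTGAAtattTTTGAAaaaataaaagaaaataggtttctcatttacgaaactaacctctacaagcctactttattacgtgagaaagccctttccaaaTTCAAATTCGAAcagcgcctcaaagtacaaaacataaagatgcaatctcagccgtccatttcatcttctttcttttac
HIK (chr1:6324329-6324628, minus strand) has a CCGTT that begins 11 bases before the start and a TTTGAA 64 bases before it, and a TTCAAA just after it.
HIK: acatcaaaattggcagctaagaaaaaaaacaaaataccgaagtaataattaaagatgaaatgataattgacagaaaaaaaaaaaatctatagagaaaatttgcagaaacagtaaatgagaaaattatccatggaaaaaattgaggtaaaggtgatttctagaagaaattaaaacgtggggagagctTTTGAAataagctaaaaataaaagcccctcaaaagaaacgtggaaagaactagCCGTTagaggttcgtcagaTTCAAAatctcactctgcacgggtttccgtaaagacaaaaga
PAKRP1L (chr3:8518886-8519185, plus strand) has 4 AACGG words on either strand.
PAKRP1L: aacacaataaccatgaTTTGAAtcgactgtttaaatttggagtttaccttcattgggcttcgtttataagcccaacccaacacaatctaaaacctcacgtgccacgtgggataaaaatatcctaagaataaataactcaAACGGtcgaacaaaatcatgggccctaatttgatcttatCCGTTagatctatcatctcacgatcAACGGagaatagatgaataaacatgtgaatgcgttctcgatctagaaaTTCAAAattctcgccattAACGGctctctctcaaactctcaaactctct
ATK5 (chr4:2674814-2675113, plus strand) has none of the words in this window.
ATK5: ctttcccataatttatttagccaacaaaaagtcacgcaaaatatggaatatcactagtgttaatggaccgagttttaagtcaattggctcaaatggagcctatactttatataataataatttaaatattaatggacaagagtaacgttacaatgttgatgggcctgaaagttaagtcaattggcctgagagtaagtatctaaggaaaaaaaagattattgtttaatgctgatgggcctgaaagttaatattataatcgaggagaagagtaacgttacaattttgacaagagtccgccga
The kinesins with no AACGG in the window, POK1, AT3G20150, ATK1 and ATK5, had log2 fold changes of 2.49, 1.34, 1.77 and 1.23, and those with the word ran from 0.90 to 1.78, so the ranges overlapped. TES (1.51), PAKRP2 (1.07) and ATK5 (1.23) had no TTTGAA or TTCGAA.

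Other kinesin genes did not all rise. Over all genes tested, 6.15% were called higher and 2.32% lower. Of 43 further genes whose translated coding sequence holds the motor signature, 19 were called higher and 1 lower by limma, with a median log2 fold change of 0.35. This list was made after the values of the 10 kinesins had been seen. By the word kinesin in the annotated product, 22 other genes were found, of which 20 were tested and 8 were higher and 0 lower, with a median of 0.25. Only 13 of these 22 hold the motor signature. Among the signature genes, AT3G63480, annotated like AT5G02370 as an ATP binding microtubule motor, was at 173 and 211 in cmt3, against 1206 and 1127 in the labelled triple mutant (log2 fold change 2.60 ± 0.14; limma adjusted p = 0.000423). AT5G02370 was at 234 and 232 in cmt3, against 1352 and 1319 in the labelled triple mutant (2.52 ± 0.10; limma adjusted p = 0.000355). Both rises were of the size of that of POK1 (2.49). ATK4, a relative of ATK1, rose from 286 ± 65.4 to 1255 ± 9.13 (SD, n = 2 each; limma adjusted p = 0.00097), and AT5G33300, annotated as a chromosome-associated kinesin-like protein, rose from 247 ± 63 to 1225 ± 17.7 (limma adjusted p = 0.000985). AT1G72250 rose from 585 ± 1.27 to 1241 ± 5.56 and AT5G55520 from 403 ± 8.39 to 865 ± 18.4 (limma adjusted p = 0.00115 and 0.00193). AT5G33300 and AT5G55520 were found by the product word only and are not among the 43 genes with the motor signature.

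Not every kinesin-14 gene was called, and those named here are a selection. No count over the family was made, since the reference does not give it. ATK4, named above, was called higher. ATK2, named after its values were seen, was at 2558 and 2492 in cmt3, against 2581 and 2563 in the labelled triple mutant, with a log2 change of 0.03 and an interval of -0.15 to 0.20 (limma adjusted p = 0.897). ATK3 was at 840.3 and 1030.3 in cmt3, against 1242 and 1139 in the labelled triple mutant, with an interval of 0.06 to 0.65 (adjusted p = 0.162). The intervals of ATK1 (1.49 to 2.04) and ATK5 (1.02 to 1.44) lay above both, although the differences were not tested. The calmodulin-binding kinesin gene ZWI, which acts in trichome shape, was at 2080.3 and 1948 in cmt3, against 2058 and 1936 in the labelled triple mutant (adjusted p = 0.961). FRA1, a kinesin of interphase cell wall deposition, was at 4054 and 3725 in cmt3, against 3468 and 3538 in the labelled triple mutant (adjusted p = 0.369). The lowest fold changes in the product list were those of ARK2, an armadillo repeat kinesin, and AT4G26410, at -0.13 and -0.11 (limma adjusted p = 0.418 and 0.503). AT4G26410 was found by the product word only and is not among the genes with the motor signature, where some uncalled genes had lower values. The gene called lower, AT3G50240, was at 3133 and 2734 in cmt3, against 2089 and 2254 in the labelled triple mutant (log2 fold change -0.43; limma adjusted p = 0.0442). It lost that call with a pseudocount of 0.1 (adjusted p = 0.0538), with the replicate block (0.0665), without the trend (0.224) and without cmt3 replicate 1 (0.106).

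**Figure D4:**
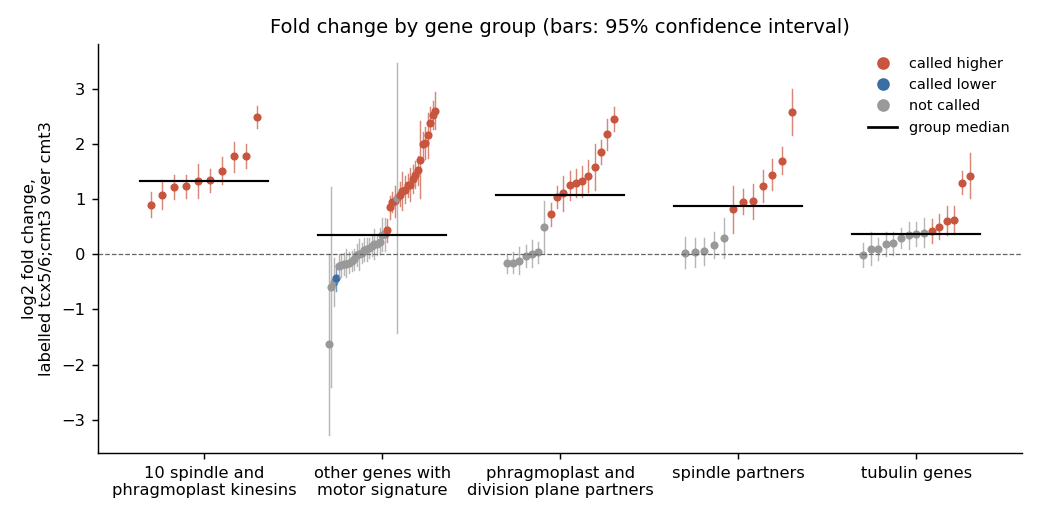
Log2 fold change of labelled tcx5/6;cmt3 over cmt3 for the tested genes of 5 groups, with 95% confidence intervals as vertical bars, black lines at the group medians, and colours for genes called higher (red), lower (blue) or not called (grey) by limma. The 10 kinesins all lie above 0 with a median of 1.33, and the spindle partners also lie above 0, with a lowest value of 0.03. The lowest values of the phragmoplast and division plane partners and of the tubulin genes are -0.16 and -0.01. Among the other genes with the motor signature the lowest is -1.63, for AT5G42490, which was not called. That gene was at 14.4 and 6.69 in cmt3, against 2.32 and 2.73 in the labelled triple mutant.

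The partners of these kinesins were counted by list, beside 6.15% of all genes tested called higher and 2.32% called lower. Of 18 phragmoplast and division plane genes, 11 were higher and 0 lower, with a median log2 fold change of 1.07, and limma without the trend called 7 higher. In the kinase cascade that HIK and TES activate, the MAP kinase kinase kinase gene ANP2 rose from 214 ± 5.92 to 965 ± 4.83 (SD, n = 2 each; limma adjusted p = 0.000423), while its relative ANP3 rose from 450.0 ± 22.2 to 2454 ± 6.11 (limma adjusted p = 0.000277). ANP1 rose from 329 ± 74.4 to 972 ± 38.7 (adjusted p = 0.00299), a call lost without the trend (0.0654), and MKK6, the next kinase, rose from 300.1 ± 16.9 to 802 ± 42.9 (adjusted p = 0.00128). MPK4, the last kinase of the cascade, was at 2308 and 2241 in cmt3, against 2029 and 2034 in the labelled triple mutant (log2 fold change -0.16; adjusted p = 0.284). The fused kinase gene TIO, whose protein binds kinesin-12 motors, rose from 547 ± 22.9 to 1981 ± 76.6, and KNOLLE, the cell plate syntaxin, from 776 ± 26.4 to 1589 ± 36.1 (adjusted p = 0.000387 and 0.00117). The microtubule bundler gene MAP65-3, which acts at the phragmoplast midline, rose from 473 ± 9.11 to 1161 ± 105 (adjusted p = 0.00121), whereas MAP65-1, which also bundles interphase microtubules, was at 4219 and 3547 in cmt3, against 3885 and 3888 in the labelled triple mutant (adjusted p = 0.985). Among other genes of the list, TAN1, a marker of the division plane, rose from 351 ± 45.1 to 750.5 ± 28.1 and RANGAP1 from 902 ± 28.4 to 1491 ± 58.6 (adjusted p = 0.00471 and 0.00422), both lost without the trend (0.0618 and 0.0663). The 7 genes of the list that were not called are not all named here.

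Of 12 spindle genes, 7 were higher and 0 lower, with a median of 0.88, against 6.15% of all genes tested called higher. Limma without the trend called 5 higher, and quantile normalization and the replicate block each called 6. The Aurora kinase genes AUR1, AUR2 and AUR3 had log2 fold changes of 1.69, 1.24 and 2.57 (limma adjusted p = 0.000499, 0.00209 and 0.000687). EB1C, a microtubule end-binding protein of dividing cells, rose from 382 ± 36.6 to 1037 ± 36.7 (SD, n = 2 each; adjusted p = 0.00109), while EB1A and EB1B had log2 fold changes of 0.29 and 0.03 (adjusted p = 0.339 and 0.93). Of 15 tubulin genes, which encode the track itself, 6 were higher and 0 lower, with a median of 0.36, and limma without the trend called 1. TUB7, a beta tubulin gene, rose from 3829 ± 78.1 to 9401 ± 505 (log2 fold change 1.29; adjusted p = 0.000596). TUB1, TUA2 and TUA1 had log2 fold changes of 1.42, 0.62 and 0.61 (adjusted p = 0.00412, 0.0168 and 0.0198), and the call of each was lost without the trend (0.0863, 0.109 and 0.135).

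The MYB3R genes encode the factors that bind AACGG elements. MYB3R4, an activator of mitotic genes, was at 415 and 549 in cmt3, against 1993 and 1883 in the labelled triple mutant (log2 fold change 2.02 ± 0.14; limma adjusted p = 0.000727). MYB3R1 and MYB3R3 had log2 fold changes of 0.53 and 0.68 (adjusted p = 0.014 and 0.0168), calls lost without cmt3 replicate 1 (0.0531 and 0.0563) and without the trend (0.128 and 0.071), that of MYB3R1 also without cmt3 replicate 2 (0.0624), and MYB3R5 was not called (0.32; adjusted p = 0.382).

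None of the markers of tissues that hold dividing cells was called higher, and the part of tissue makeup in the kinesin result was not tested. Of 5 stomatal lineage markers none was called. SPCH, which starts the lineage, was at 201 and 142 in cmt3, against 265 and 214 in the labelled triple mutant (log2 fold change 0.49; limma adjusted p = 0.32). FAMA and TMM made up most of the list's level, and the 5 values summed to 1627 and 1221 in cmt3, against 1557 and 1267 in the labelled triple mutant. Of 4 shoot meristem markers, WUS and CLV3 were listed at 0 in all libraries, and the list summed to 257 and 331 in cmt3, against 276 and 298 in the labelled triple mutant, most of it KNAT1. STM, which maintains the shoot meristem, was at 49.7 and 44.7 in cmt3, against 70.8 and 63.8 in the labelled triple mutant (log2 fold change 0.50; limma adjusted p = 0.429). For SPCH and STM both labelled triple mutant libraries lay above both cmt3 libraries, as for 24.4% of all genes tested. EPF1, at 64.5 and 56.3 in cmt3, against 48 and 48.1 in the labelled triple mutant, lay the other way (limma adjusted p = 0.647). Log2 fold changes were -0.36 for MUTE, -0.25 for FAMA, 0.15 for TMM and -0.15 for KNAT1. Of 5 root markers, with PLT1, PLT2 and WOX5 of the root meristem at 22.1 to 72.5, none was called. Intervals were wide for SPCH (-0.08 to 1.07), STM (-0.23 to 1.24), WOX5 (-1.09 to 1.39) and PLT2 (-0.86 to 1.49). They hold the log2 change of HIK (0.90), so the missing calls do not show that these markers stayed level. The other tested stomatal, shoot meristem and root markers had upper ends from 0.10 for SCR to 0.89 for MUTE. PYK10 was at 57523 and 87399 in cmt3, against 52693 and 47919 in the labelled triple mutant (log2 fold change -0.50; limma adjusted p = 0.351), and it was called lower without cmt3 replicate 1 (-0.80; adjusted p = 0.0473). Of 4 flower markers none was called, and their sums were 41.4 and 47.9 in cmt3, against 80.8 and 60.2 in the labelled triple mutant.

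By distance between log2 values centred on each gene's mean over the 4 libraries, the 5 genes nearest to the mean profile of the 10 kinesins were APC8, an anaphase-promoting complex subunit, RFC2, a replication factor C subunit, MEI1 (AT1G77320), ATIM, a timeless family gene, and AT5G48600, annotated as a structural maintenance of chromosome gene. Their distances were 0.00786, 0.0164, 0.0355, 0.0369 and 0.0436 on the log2 scale. APC8 was at 358 and 347 in cmt3, against 986 and 961 in the labelled triple mutant.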

How the data were processed

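Per the labels' protocols, TRIzol RNA from 1 g of seedlings was made into mRNA libraries. Reads were aligned with HISAT2 to TAIR10 and edgeR was used, per the submitters' processing notes; for the counter, strand setting, annotation and versions, nothing is stated in the sources at hand. Each value deposited by the authors is a fractional, normalised signal for a gene in a library. Whether it was divided by length is not stated, and it was taken as not divided. Low values did not form whole reads, so depth is unknown and no count test was used. At the step that gave the largest share in each library (0.53 to 0.8), 31.0% to 41.5% lay within 0.1 of whole steps (4 libraries). Another 4 columns of per-sample values were left unused because no sample here matches them.

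Values under 1e-10 were set to 0. Genes at 1 or more in 2 or more libraries (23666) entered limma 3.58.1 (R 4.3.3) as log2(value + 1), with genotype as the only term, a mean-variance trend and Benjamini-Hochberg adjustment at 0.05. The code was tested on simulated data. Intervals are limma's at 95%. Sequences and coordinates (1-based) are from RefSeq TAIR10.1, to which all 32548 identifiers matched; nuclear coordinates are taken as those of TAIR10. Translations, pairwise alignment and word searches used Python 3.11.15 and Biopython 1.88.

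Results for 2 partner genes are not reported here. The members and lists were chosen with earlier results of these data known. Genes named were all members, the 4 smallest p of each list, the 2 lowest of the product list and the 5 nearest profiles. A planned count of further kinesin-12 and kinesin-14 genes was not made, since the reference does not give these families. Others were named after their values were seen. Among them were ATK2, AT3G63480, AT5G02370, ATK3, ZWI, FRA1, AT3G50240, ANP1, MKK6, MPK4, MAP65-1, MAP65-3, TAN1, RANGAP1, EB1A and EB1B. Alternatives were quantile normalization, median centring, other filters, a pseudocount of 0.1, no trend, a replicate block and leaving out each library.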

Additional observations from a re-analysis of the deposited data

How the results depend on the processing

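The 10 kinesins kept their direction in all 110 refits and their call in 89, all from the same libraries. For each kinesin both labelled triple mutant libraries lay above both cmt3 libraries, so leaving out 1 library could not reverse the direction. Of the 21 lost calls, 20 came from leaving out a labelled triple mutant library and 1 from limma without the trend (HIK). Leaving out 1 library gave 0 to 10 kinesins higher, 0 to 8 other kinesin genes, 0 to 11 phragmoplast and division plane partners, 0 to 6 spindle partners and 0 to 7 tubulin genes, and over all genes 0 to 1281 higher and 0 to 530 lower. The counts of 0 arose without either labelled triple mutant library, where limma had 2407 and 2490 genes at an unadjusted p under 0.05, and 341 genes were lower without cmt3 replicate 1. Limma without the trend called 586 genes higher and 135 lower, 7 phragmoplast and division plane partners and 1 tubulin gene. With the motor signature in place of the product word, 19 other kinesin genes were higher. In the 500 bases before the start, 1 of the 10 kinesins had an E2F word, against 2.2% of all genes, and 0 had one in the shorter window. Same-numbered libraries did not deviate together (correlation -0.0459 over 17400 genes with a mean of 100 or more), and with the replicate block 10 kinesins, 1314 genes higher and 473 lower were called. Fits without a cmt3 library have as few libraries and kept 10 kinesins, with 1182 and 1281 genes higher; the cause of the losses was not tested. Depth is unknown, so what it limits cannot be given.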
